A study of Mus musculus with 14 samples.

Results

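The 10 genes described here form the route by which IL-6 signals into a liver cell: the receptor genes *Il6ra* and *Il6st*, the kinase genes *Jak1*, *Jak2* and *Tyk2*, the transcription factor gene *Stat3*, the feedback inhibitor gene *Socs3*, the phosphatase gene *Ptpn11*, and the C/EBP factor genes *Cebpb* and *Cebpd*. They were taken by gene name from a table of 55487 genes, and all 10 had 1 row and enough reads to be tested. The table holds RNA sequencing counts from the right liver lobe of 14 male TALLYHO mice, a polygenic model of type 2 diabetes, aged 8 to 12 weeks. Of these mice, 7 received water as vehicle and 7 received 20 mg/kg indole, a product of bacterial tryptophan metabolism, by oral gavage in 2 doses per day over 7 days. A further 2 doses were given between metabolic tests, and the lobe was taken on day 11. Both groups share strain, sex, gavage and tests, and each library (G1 to G14) is 1 mouse. The lobe was used whole, so that Kupffer cells, endothelium and stellate cells are included with the hepatocytes.

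IL-6 binds its receptor, encoded by *Il6ra*, and the complex engages gp130, encoded by *Il6st*, which carries the signal for the whole IL-6 family of cytokines. Kinases of the JAK family bound to gp130 phosphorylate STAT3, which enters the nucleus and, with C/EBP factors, switches on acute-phase genes in hepatocytes. SOCS3, itself a STAT3 target, binds gp130 and JAKs and ends the signal, while SHP2, the product of *Ptpn11*, links gp130 to the RAS-MAPK branch.

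Of the 9 promoter windows found for chain genes, that of *Socs3* was the only one with a match to the STAT motif, and it is shown with those of *Stat3* and *Il6ra*, because these 3 genes had the smallest *p* values in the comparison below. RefSeq promoter windows on GRCm38.p6, from 250 bases before each gene's start to 50 bases after it, were found for 9 of the 10 genes, with none for *Cebpd*. They were searched on both strands for TTCNNNGAA, the STAT motif, and for TTGCNNAA, a C/EBP motif. Only bases before each RefSeq start are printed. For *Socs3* these bases lie inside the span of the gene given below, which reaches to 117970047. The *Socs3* window also ended before the start of the coding transcript, so the bases next to that start were not searched. The *Socs3* stretch is chr11:117969452-117969616 and leaves out bases that GENCODE assigns to an exon of a noncoding *Socs3* transcript. The *Stat3* stretch is chr11:100939595-100939790, upstream of every RefSeq transcript of the gene, and the *Il6ra* stretch is chr3:89913197-89913446. All 3 are on the minus strand, written 5′ to 3′, with capitals for the STAT match.
Socs3: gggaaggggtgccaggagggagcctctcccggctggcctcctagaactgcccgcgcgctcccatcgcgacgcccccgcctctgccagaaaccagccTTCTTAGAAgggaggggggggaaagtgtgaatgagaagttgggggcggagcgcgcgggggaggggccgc
Stat3: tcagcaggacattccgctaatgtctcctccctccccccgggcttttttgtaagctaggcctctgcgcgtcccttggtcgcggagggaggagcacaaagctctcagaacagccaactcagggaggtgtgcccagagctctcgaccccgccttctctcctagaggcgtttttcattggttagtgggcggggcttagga
Il6ra: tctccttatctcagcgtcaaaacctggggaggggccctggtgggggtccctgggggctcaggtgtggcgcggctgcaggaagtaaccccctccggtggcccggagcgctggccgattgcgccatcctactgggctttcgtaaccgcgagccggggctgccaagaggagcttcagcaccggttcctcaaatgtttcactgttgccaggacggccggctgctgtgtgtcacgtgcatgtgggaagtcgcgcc
The match TTCTTAGAA begins 154 bases before the RefSeq start of *Socs3* and 334 bases before the start of its coding transcript in GENCODE, which lies 180 bases downstream of the RefSeq start. Of 32851 promoter windows in RefSeq, 8.30% held the STAT motif and 10.8% held the C/EBP motif. Counted by gene, as for the lists here, the shares were 9.55% and 12.2% of 27025 genes. None of the 9 windows held the C/EBP motif. Among 36 acute-phase and other hepatic target genes of STAT3 and C/EBP, 31 had a window, of which 8 held the STAT motif (among them *Fga*, *Fgb* and *Hamp*) and 12 the C/EBP motif (among them *Saa1*, *Saa2* and *C3*). GC content was 70.3% in the *Socs3* stretch, 59.2% in that of *Stat3* and 65.2% in that of *Il6ra*. A match of letters is a description and shows no binding.

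The total count of a mouse lay between 15197498 and 21060376 reads. Levels are given as CPM, the count scaled to library size, after TMM scaling, which adjusts for library composition, and differences as log2 fold changes of indole against vehicle. The counts were compared with edgeR's quasi-likelihood test over the 12653 genes that passed its expression filter. Hepatocyte markers were high in every mouse, at 64505 to 99852 CPM in sum. In these data 4 mice stood apart from the others in ways that touch the results. G13 (vehicle) was the highest mouse for *Il6st*, *Stat3* and *Socs3*, G11 (vehicle) had 2050 CPM of the acute-phase gene *Saa1* against 479.9 CPM in G13 and 15.9 to 108.7 CPM in the other mice, G4 (vehicle) was highest for 5 members of the chain, and G8 (indole) was highest for the macrophage and the T and NK cell marker sums. Fewer cells of a type and less RNA per cell cannot be told apart in a whole lobe.

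Of the 10 genes, 9 had a lower fitted level in indole-treated mice and 1, *Cebpd*, had a higher one. The median log2 fold change over the 10 was −0.09, against 0.00 over all genes tested, of which 48.7% were lower. An unadjusted *p* below 0.05 was found for 3 genes, *Socs3*, *Stat3* and *Il6ra*, all lower, and 3.81% of all genes tested reached it (2.28% in the lower direction). In DESeq2, 3.19% of 22535 genes reached it, with *Socs3* and *Stat3* among the members. None of the 10 passed after adjustment, since edgeR's Benjamini–Hochberg adjusted *p* was 0.998 for each of them and no gene of the 12653 had an adjusted *p* below 0.05. No member separated the groups, and 0.0474% of genes did so.

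**Figure D1:**
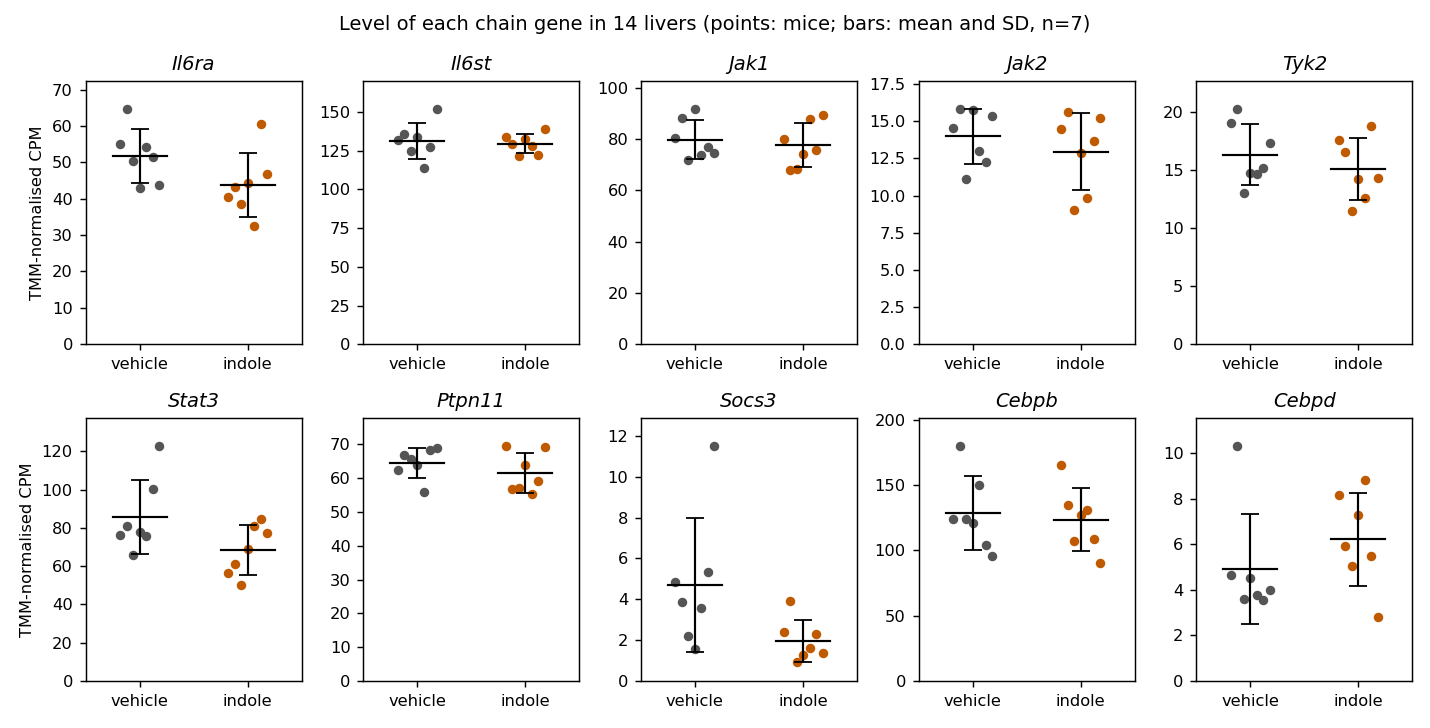
TMM-normalised CPM of the 10 chain genes (vertical axes from 0, each gene on its own scale) in 7 vehicle-treated and 7 indole-treated mice, with points for mice and bars for mean and SD. The groups overlap for every gene, and for *Socs3* 1 vehicle-treated mouse lies at 11.5 CPM.

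*Il6ra* (ENSMUSG00000027947, chromosome 3 of GRCm38 from 89864059 to 89913196, minus strand) ranged from 42.8 to 64.6 CPM (median 51.3 CPM) in the vehicle group, and from 32.6 to 60.5 CPM (median 43.3 CPM) in the indole group. Of the indole-treated mice, 6 of 7 were below the vehicle median and 3 were below every vehicle-treated mouse, while G12 was above all vehicle-treated mice but 1. The means were 51.7±7.37 CPM and 43.8±8.70 CPM (SD, *n*=7 each), a log2 fold change of −0.24 (SE 0.114, 95% interval −0.48 to −0.0011). The unadjusted edgeR *p* was 0.0491, and a two-sided exact permutation test over all relabellings of the mice gave *p*=0.0775. Without G12 the log2 fold change was −0.33 (unadjusted *p*=0.0034), and without G4 it was −0.18 (unadjusted *p*=0.128). It had an unadjusted *p* below 0.05 in 3 of the 14 fits that each left out 1 mouse. The lowest level, 32.6 CPM, was in G8, where the macrophage marker sum was 548.2 CPM against 124.9 to 297.8 CPM in the other mice. The part of these cells in the result was not tested.

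*Il6st* (ENSMUSG00000021756, chromosome 13 from 112464070 to 112510086, plus strand) varied least in the indole group of all 10 genes. Its level ran from 113.9 to 151.8 CPM (median 132.2 CPM) in vehicle-treated mice and from 121.7 to 139.1 CPM (median 129.2 CPM) in indole-treated mice, so that the indole range lay inside the vehicle range. The log2 fold change was −0.02 (SE 0.0672, 95% interval −0.16 to 0.12), and its sign turned to 0.02 without G13. The unadjusted edgeR *p* was 0.761. Per kilobase of exons, the ratio of *Il6ra* to *Il6st* was 0.510±0.0915 with vehicle and 0.435±0.0956 with indole (SD, *n*=7 each; exact permutation *p*=0.138).

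The kinase genes differed between the groups by less than the spread between mice. *Jak1* (ENSMUSG00000028530, chromosome 4 from 101152367 to 101265282, minus strand) encodes the kinase on which gp130 signalling mainly depends. It ranged from 72.0 to 91.7 CPM (median 77.0 CPM) with vehicle and from 68.1 to 89.3 CPM (median 75.7 CPM) with indole, with a log2 fold change of −0.04 (95% interval −0.20 to 0.13). *Jak2* (ENSMUSG00000024789, chromosome 19 from 29251828 to 29313080, plus strand) ranged from 11.1 to 15.8 CPM (median 14.6 CPM) and from 9.04 to 15.6 CPM (median 13.7 CPM), with a log2 fold change of −0.11 (95% interval −0.37 to 0.15).

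For *Tyk2* (ENSMUSG00000032175, chromosome 9 from 21104068 to 21131243, minus strand), the third kinase that gp130 can use, the levels were 13.01 to 20.2 CPM (median 15.2 CPM) and 11.5 to 18.7 CPM (median 14.3 CPM), with a log2 fold change of −0.11 (95% interval −0.36 to 0.13). The indole-treated mice G5 and G8 were below every vehicle-treated mouse for both *Jak2* and *Tyk2*, and the other 5 lay within the vehicle range. The unadjusted edgeR *p* was 0.62 for *Jak1*, 0.388 for *Jak2* and 0.345 for *Tyk2*.

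*Stat3* (ENSMUSG00000004040, chromosome 11 from 100885098 to 100939540, minus strand) ranged from 65.96 to 122.9 CPM (median 77.9 CPM) in vehicle-treated mice, and from 50.03 to 84.5 CPM (median 69.2 CPM) in indole-treated mice. G13 at 122.9 CPM and G11 at 100.2 CPM were above every indole-treated mouse, and G5, G2 and G3 (50.03, 56.7 and 61.0 CPM) were below every vehicle-treated mouse. Means were 85.7±19.4 CPM and 68.6±13.1 CPM (SD, *n*=7 each), which gave a log2 fold change of −0.32 (SE 0.141, 95% interval −0.62 to −0.02). The unadjusted edgeR *p* was 0.0359 and the exact permutation *p* was 0.0676.

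Among the fits without 1 mouse, the *Stat3* log2 fold change was smallest in size without G13, at −0.21 (unadjusted *p*=0.0898). Without both G11 and G13 it was −0.14 (unadjusted *p*=0.257). G13 and G11, both vehicle-treated, were the highest and second highest of all mice for *Stat3*, so leaving them out makes the difference smaller by construction. The unadjusted *p* stayed below 0.05 in 9 of the 14 fits without 1 mouse. It did not without any 1 of the vehicle-treated mice G11 and G13 or of the indole-treated mice G2, G3 and G5. Across the mice, with the group means removed, *Stat3* ran opposite to the summed markers of sinusoidal endothelium (Pearson *r*=−0.79, Spearman rho=−0.741 over 14 mice, given as a description). That *r* was the largest in size among those of the 9 marker sums with *Socs3*, *Stat3* and *Il6ra*. The next was −0.57, for *Il6ra* with macrophage markers. The endothelial sums were 58.2 to 97.1 CPM with vehicle and 67.4 to 131.8 CPM with indole. The endothelial sum was lowest in G11 (58.2 CPM) and highest in G5 (131.8 CPM). The part of endothelium in the *Stat3* values was not tested.

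*Socs3* (ENSMUSG00000053113, chromosome 11 from 117966079 to 117970047, minus strand) showed the largest difference of the chain. In the vehicle group the levels were 1.56, 2.20, 3.59, 3.84, 4.84, 5.32 and 11.5 CPM (G9, G6, G10, G4, G1, G11 and G13), and in the indole group they were 0.917, 1.25, 1.35, 1.62, 2.31, 2.42 and 3.91 CPM (G5, G7, G14, G8, G12, G2 and G3). The 3 highest vehicle-treated mice were above every indole-treated mouse and 3 indole-treated mice were below every vehicle-treated mouse. The mean was 4.69±3.29 CPM with vehicle and 1.97±1.02 CPM with indole (SD, *n*=7 each), and the log2 fold change was −1.25 (SE 0.412, 95% interval −2.13 to −0.37), or 0.42-fold.

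The unadjusted edgeR *p* of *Socs3* was 0.00837, and it was the only gene of the 10 with an exact permutation *p* below 0.05 (*p*=0.0251, and 0.0495 without G13). The exact *p* values of the 10 genes were not adjusted, and no share over all genes tested was computed for this test. DESeq2, the test named in the study's methods, gave an unadjusted *p* of 0.000729 (adjusted *p*=0.758) on all genes with a read and of 0.00432 (adjusted *p*=0.841) on the genes tested with edgeR. With limma voom the unadjusted *p* was 0.0237 (adjusted *p*=0.989). Leaving out 1 mouse moved the log2 fold change between −1.51 (without G3) and −0.85 (without G13), with an unadjusted *p* below 0.05 in all 14 fits. Without both G11 and G13 it was −0.70 (unadjusted *p*=0.0523). Both are vehicle-treated and were the highest mice for *Socs3*, so leaving them out makes the difference smaller by construction. The counts behind these levels were 14 to 243 reads per mouse, which gives a counting error of 26.7% of the level in the mouse with the fewest reads, against a spread between mice of 70.0% (vehicle) and 51.8% (indole).

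G13, the mouse with the highest *Socs3*, had marker sums inside the range of the other mice for macrophages (245.1 CPM) and neutrophils (1.23 CPM, with *Ly6g* at 0 in all 14 mice), and the lowest sums of all 14 mice for T and NK cells (1.18 CPM), B and plasma cells (0.900 CPM) and erythroid cells (186.2 CPM). Its endothelial sum, 69.4 CPM, was the third lowest. Over the groups, neutrophil marker sums were 0.467 to 2.49 CPM with vehicle and 0.793 to 1.96 CPM with indole, and none of these 9 genes had enough reads to be tested. Erythroid markers summed to 243.4 to 988.7 CPM (median 455.3 CPM) with indole and 186.2 to 352.1 CPM (median 267.5 CPM) with vehicle. The indole-treated mice G3, G7 and G8 (250.9, 264.9 and 243.4 CPM) lay inside the vehicle range and the others above it. Of the erythroid genes, 3 of the 3 tested had an unadjusted *p* below 0.05, all higher. Over all genes tested, 3.81% reached it, and none passed after adjustment. The part of erythroid cells in the chain genes was not tested. Per kilobase of exons, the ratio of *Socs3* to *Stat3* was 0.169±0.0770 with vehicle and 0.0978±0.0582 with indole (SD, *n*=7 each; exact permutation *p*=0.0536).

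*Ptpn11* (ENSMUSG00000043733, chromosome 5 from 121130533 to 121191397, minus strand) had closely similar ranges in the groups, 56.0 to 69.0 CPM (median 65.7 CPM) with vehicle and 55.2 to 69.6 CPM (median 59.3 CPM) with indole. The highest 2 of all 14 mice, G2 and G14, and the lowest, G8, were indole-treated. The log2 fold change was −0.07 (SE 0.0715, 95% interval −0.22 to 0.08, unadjusted edgeR *p*=0.341, exact permutation *p*=0.277).

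The pair of C/EBP genes differed in sign. *Cebpb* (ENSMUSG00000056501, chromosome 2 from 167688915 to 167690418, plus strand) encodes the factor first described as an IL-6 response factor of the liver. Its level was 95.9 to 180.0 CPM (median 123.9 CPM) with vehicle and 90.3 to 165.3 CPM (median 127.3 CPM) with indole, with nearly complete overlap. The log2 fold change was −0.06 (SE 0.141, 95% interval −0.35 to 0.24, unadjusted edgeR *p*=0.693, exact permutation *p*=0.741), and its sign turned without G4 (0.05) and without G14 (0.01).

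For *Cebpd* (ENSMUSG00000071637, chromosome 16 from 15887286 to 15891031, plus strand), a C/EBP gene induced early in the acute phase, the vehicle group had 6 mice between 3.54 and 4.64 CPM and G4 at 10.3 CPM, with a median of 3.98 CPM. The indole group ran from 2.81 to 8.81 CPM with a median of 5.94 CPM, and 6 of its 7 mice were above the vehicle median. The log2 fold change was 0.34 (SE 0.264, 95% interval −0.22 to 0.89, unadjusted edgeR *p*=0.22, exact permutation *p*=0.236). Without G4 it was 0.63 with an unadjusted *p* of 0.00593, so that this mouse decided the size of the difference. Per kilobase, the ratio of *Cebpd* to *Cebpb* was 0.0150±0.00415 with vehicle and 0.0199±0.00450 with indole (SD, *n*=7 each; exact permutation *p*=0.0571). *Cebpb* shares 312 bases (20.7%) of its exons with *Tmem189* and *Cebpd* shares 562 bases with *Spidr*, each on the opposite strand. The libraries were strand-specific, but the strand setting of the counting is not given in the sources used here.

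**Figure D2:**
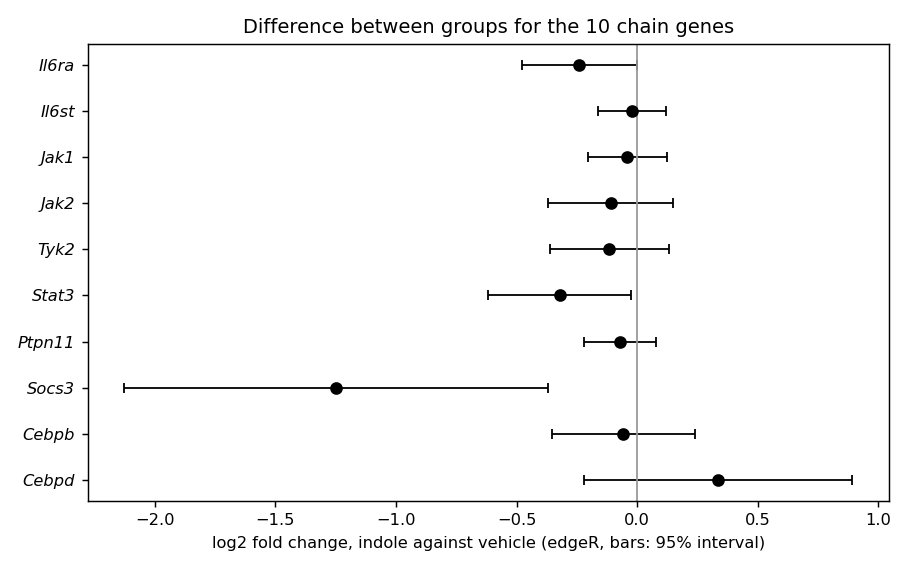
Fitted log2 fold change of indole against vehicle (horizontal axis) for the 10 chain genes, with bars for the 95% interval from edgeR. The interval lies below 0 for *Socs3*, *Stat3* and *Il6ra* before any adjustment for the number of genes, and spans 0 for the other 7.

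Divided by the length of their exons, the highest and lowest chain genes differed far more in level than any chain gene did between the groups. This did not hold for genes close in level, such as *Cebpd* and *Socs3*. *Cebpb* had the highest level at 83.7 CPM per kilobase over all mice, followed by *Il6st* at 11.8, *Jak1* at 10.9, *Ptpn11* at 8.42, *Stat3* at 8.10, *Il6ra* at 5.52, *Jak2* at 2.68, *Tyk2* at 2.28, *Cebpd* at 1.49 and *Socs3* at 1.15 CPM per kilobase. Between neighbours in this order the ranges over mice did not overlap for *Cebpb* and *Il6st*, for *Jak1* and *Ptpn11*, and for *Il6ra* and *Jak2*. *Stat3* was above *Il6ra* in all 14 mice although their ranges overlapped. *Ptpn11* was above *Stat3* in 9 of 14 mice and *Cebpd* above *Socs3* in 10 of 14, which leaves the order of these neighbours unclear. The mean level of *Socs3* was 1.62 CPM per kilobase with vehicle and 0.680 with indole, and that of *Cebpd* was 1.31 with vehicle and 1.66 with indole.

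**Figure D3:**
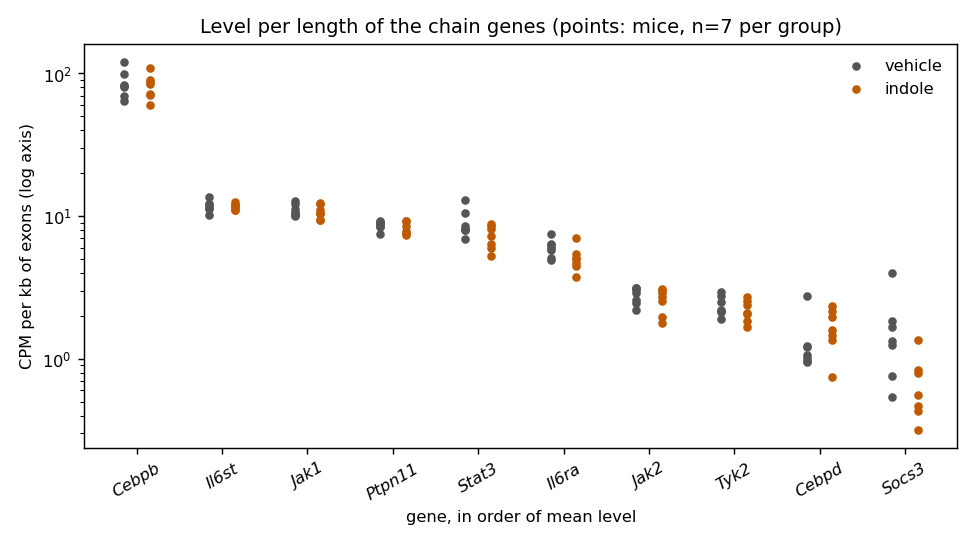
Level of the 10 chain genes in CPM per kilobase of exons (log axis) in order of the mean over 14 mice, with 1 point per mouse. *Cebpb* stands above 60 CPM per kilobase in every mouse, and the lowest genes, *Cebpd* and *Socs3*, overlap.

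The 10 genes were not highest in the same mice. G4 was the highest mouse for *Il6ra*, *Jak2*, *Tyk2*, *Cebpb* and *Cebpd*, G13 for *Il6st*, *Stat3* and *Socs3*, G9 for *Jak1* and G2 for *Ptpn11*. At the other end, G5 was lowest for 4 genes and above the vehicle mean for 1 of the 10, whereas G4 was above the vehicle mean for 8. With the group means removed, 36 of the 45 pairs of chain genes had a positive Pearson correlation across the 14 mice. After adjustment over the 45 pairs, 1 pair had an adjusted permutation *p* below 0.05 by Pearson's *r* and none by Spearman's rho.

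This pair was *Cebpb* and *Cebpd*, with *r*=0.793 (permutation *p*=0.0011, adjusted *p*=0.0495) and rho=0.688 (permutation *p*=0.00884, adjusted *p*=0.133). Without G2 and G4, the mice farthest from the median of *Cebpb*, *r* was 0.623, and it was 0.733 within the vehicle group and 0.858 within the indole group. *Jak2* and *Tyk2* followed with *r*=0.759 (permutation *p*=0.00345, adjusted *p*=0.0673), rho=0.719 (permutation *p*=0.00814, adjusted *p*=0.133) and *r*=0.616 without G5 and G8. *Il6st* and *Ptpn11* had *r*=0.69 (permutation *p*=0.00449, adjusted *p*=0.0673), rho=0.732 (permutation *p*=0.00499, adjusted *p*=0.133) and *r*=0.584 without G10 and G13.

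*Stat3* and its target *Socs3* had *r*=0.519 (permutation *p*=0.0728, adjusted *p*=0.468) and rho=0.385 (permutation *p*=0.191, adjusted *p*=0.642). This relation rested on few mice, since *r* was 0.218 without G12 and G13, 0.824 within the vehicle group and 0.09 within the indole group. The difference between the groups was not tested.

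**Figure D4:**
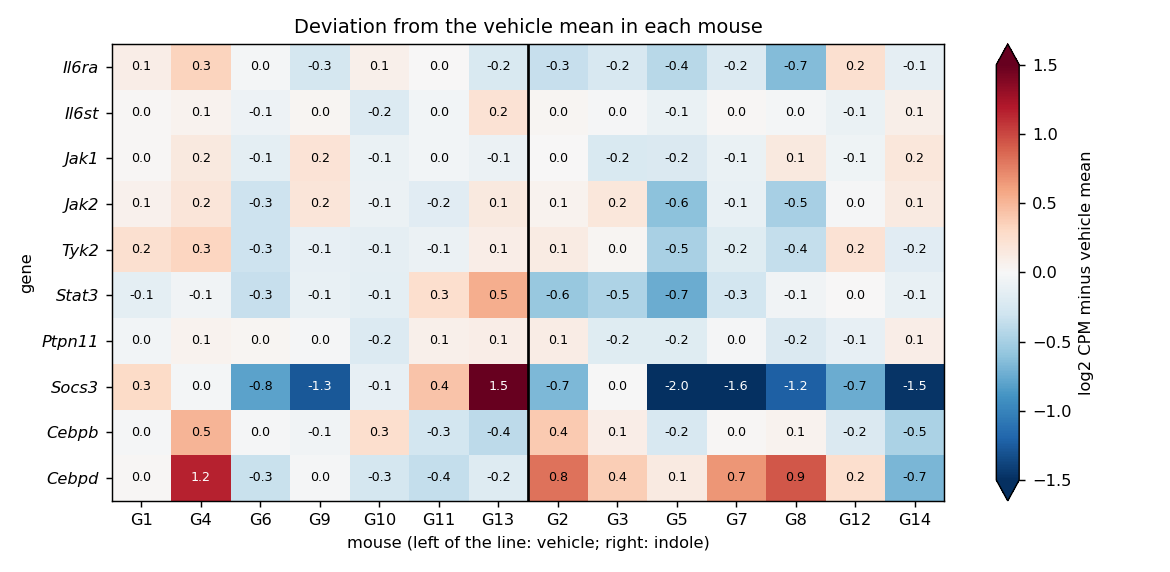
Log2 CPM of each chain gene (rows) in each mouse (columns) minus the mean of the 7 vehicle-treated mice, with vehicle left and indole right of the line and colours limited to ±1.5. *Socs3* and *Cebpd* vary most, and G4 and G13 stand high for different genes.

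The genes whose levels were most like that of *Socs3* across the 14 mice, again with the group means removed, were *Zfp612* (*r*=0.912), *D5Ertd579e* (*r*=0.88), the complement C5 gene *Hc* (*r*=0.865), the long noncoding RNA gene *Tug1* (*r*=0.861) and *Cant1* (*r*=0.856). Without G13 these values ran from 0.845 to 0.941. Among the genes most like *Stat3* were *Col15a1* (*r*=0.889), *Armc9* (*r*=0.88) and *Plec* (*r*=0.879), at 0.847 to 0.883 without G13. These are descriptions, drawn from the closest among 12653 genes. None of the 8 genes named had an unadjusted edgeR *p* below 0.05 between the groups, and their log2 fold changes ran from −0.20 to 0.22.

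Most cytokines that use gp130 had few reads in these livers. *Il6* itself had 2 reads over all 14 mice, both in G11. *Il11* had 2 reads, *Lif* 6, *Osm* 1, *Il27* 1 and *Clcf1* 2. *Cntf* had 38 reads and *Ebi3*, a subunit of IL-27, had 117, each in 13 of 14 mice. Of the 9 cytokine genes only *Ctf1* (cardiotrophin 1) passed the expression filter, at 3.95±0.675 CPM with vehicle and 3.98±0.730 CPM with indole (SD, *n*=7 each), with a log2 fold change of 0.01. With no filter on low counts, and in DESeq2 on all genes with a read, all 9 were tested and 0 had an unadjusted *p* below 0.05.

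Among the other genes of the pathway, 80 of 95 on 7 lists had enough reads, of which 61 had a lower and 19 a higher fitted level with indole, and 5 had an unadjusted edgeR *p* below 0.05, all lower, with none passing after adjustment. Over all genes tested, 48.7% were lower, 3.81% had an unadjusted *p* below 0.05 and 2.28% had one in the lower direction. The median log2 fold change of the 80 was −0.10. The 7 tested genes for other gp130 receptors and receptor shedding had a median of −0.03, with 3 higher and 4 lower and none at an unadjusted *p* below 0.05. *Lifr*, the LIF receptor gene and the most abundant of them, was at 92.6±8.81 CPM and 98.1±10.2 CPM (SD, *n*=7 each), a log2 fold change of 0.08. Of the 6 other JAK and STAT genes tested, 5 were lower and 1 higher, again with none at an unadjusted *p* below 0.05. *Stat5b*, a mediator of growth hormone signalling, was at 51.2±9.51 CPM and 44.0±5.48 CPM (SD, *n*=7 each), with a log2 fold change of −0.22 (edgeR unadjusted *p*=0.0578, adjusted *p*=0.998).

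Of 15 other inhibitors of JAK and STAT signalling, 11 had a lower and 4 a higher fitted level (median log2 fold change −0.06). *Socs2*, the SOCS gene best known as a growth hormone target, was at 3.85±2.47 CPM with vehicle and 2.24±0.416 CPM with indole (SD, *n*=7 each), with a log2 fold change of −0.79 (SE 0.334, edgeR unadjusted *p*=0.0304, adjusted *p*=0.998). It was highest in G13 (7.77 CPM) and G6 (6.47 CPM) and lowest in G10 (1.08 CPM), all vehicle-treated, with the indole-treated mice between 1.87 and 2.997 CPM. Its unadjusted *p* was not below 0.05 with limma voom, with 1 surrogate variable, or without any 1 of G1, G6, G7, G8, G12, G13 and G14. The most abundant inhibitor gene, *Trim28*, had a log2 fold change of 0.02. All 13 genes of the SHP2 and RAS-MAPK branch were tested, with 9 lower, 4 higher, none at an unadjusted *p* below 0.05 and a log2 fold change of 0.04 for *Map2k2*, the most abundant. *Spred2*, an inhibitor of the branch, had a log2 fold change of −0.44 (edgeR unadjusted *p*=0.0715, adjusted *p*=0.998), and its unadjusted *p* was below 0.05 in DESeq2 and, in edgeR, without any 1 of G3, G11 and G13. The 4 tested genes for other C/EBP factors split evenly, with *Cebpa*, a main hepatocyte factor, at 414.4±29.0 CPM and 375.4±42.3 CPM (SD, *n*=7 each; log2 fold change −0.14, edgeR unadjusted *p*=0.0839, adjusted *p*=0.998).

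The hepatic targets of STAT3 and C/EBP had the lowest median, −0.19, with 30 of 34 tested genes lower and 4 higher. Those at an unadjusted edgeR *p* below 0.05 were *Junb* (log2 fold change −0.72, SE 0.195, unadjusted *p*=0.00215), *Saa2* (−3.09, SE 1.11, unadjusted *p*=0.0164), *Saa1* (−2.82, SE 1.05, unadjusted *p*=0.0194) and the survival gene *Bcl2l1* (−0.20, SE 0.0918, unadjusted *p*=0.0423), each with an edgeR adjusted *p*=0.998. Over all genes tested, 3.81% reached an unadjusted *p* below 0.05. The count of 4 was 3 to 7 when each mouse was left out, with 7 without G8, and without G11 it was 3 and held neither *Saa1* nor *Saa2*. *C3*, the most abundant, had a log2 fold change of −0.15. G11 was the highest of the 14 mice for 14 of these 34 genes and G13 for 7. Without both, 23 were lower and 11 higher, the median was −0.03, and *Mcl1*, *Bcl2l1* and *Junb* were the 3 genes at an unadjusted *p* below 0.05. In that fit, 3.64% of all genes tested reached it. Both mice are vehicle-treated and were left out after seeing the data. For genes highest in them, a smaller difference follows by construction.

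*Junb*, an immediate early gene that responds to STAT3, differed in its distribution from the serum amyloid genes, since G11 was among its lowest mice. It was at 12.1 to 31.9 CPM (median 29.0 CPM) in the vehicle group, where G11 was lowest, and at 11.1 to 20.2 CPM (median 14.7 CPM) in the indole group. All vehicle-treated mice but G11 were above every indole-treated mouse. Mouse G11, with the highest *Saa1*, was the second highest for both *Stat3* and *Socs3*, and it ranked below G13 for both.

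**Figure D5:**
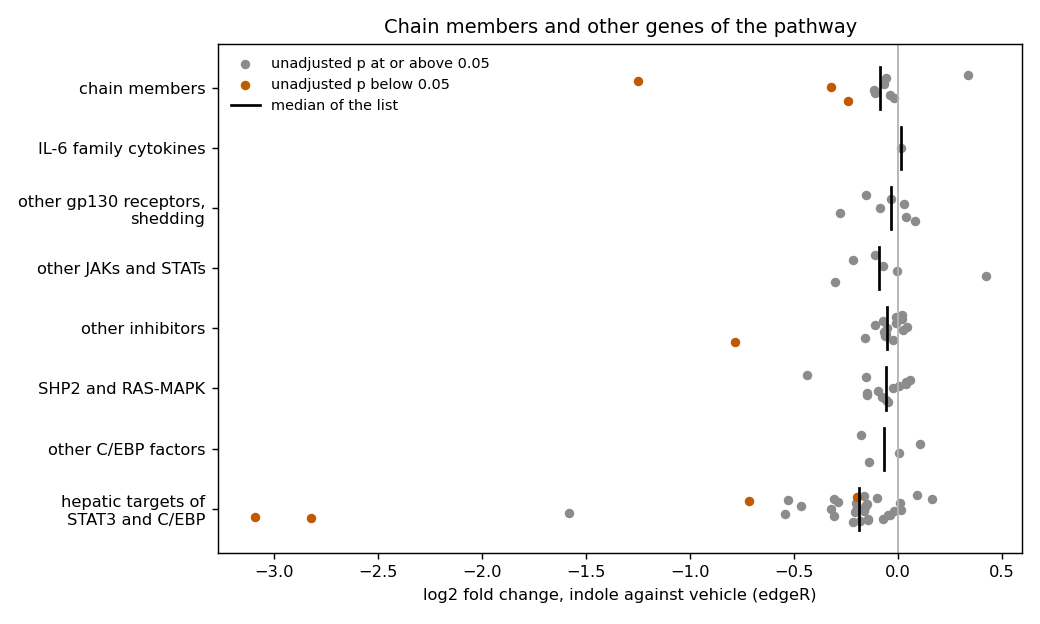
Fitted log2 fold change of indole against vehicle (horizontal axis) for each tested gene of the chain and of 7 pathway lists (rows), with orange points for an unadjusted *p* below 0.05 and black lines for the median of each list. All 8 orange points lie left of 0, and the medians lie between −0.19 and 0.01.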

How the data were processed

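Bulk mRNA sequencing of 14 TALLYHO livers was analysed, with groups taken from the sample labels. The authors deposited raw, unnormalised counts of uniquely mapped reads per gene (HISAT2, GRCm38), with gene lengths and coordinates. The counting tool is not given in the sources used here. The main test was edgeR 4.0.16 in R 4.3.3 (filterByExpr, TMM, robust quasi-likelihood), adjusted by Benjamini–Hochberg over 12653 genes. Exact permutation tests over all relabellings of the mice used log2 CPM (prior count 2), with group-centred correlations from 100000 permutations within groups. Gene lengths equalled the exon unions of GENCODE vM21. On simulated counts for 12653 genes, 200 of them changed by a log2 of 1, DESeq2 found 164 and edgeR 157 of the changed genes after adjustment. Alternatives were DESeq2 1.42.0, limma voom (limma 3.58.1), other scalings and filters, 1 surrogate variable (sva 3.50.0) and leaving out mice. The members and lists were chosen with earlier results of these data known. Named genes were all members, the most abundant gene of each list and any with an unadjusted *p* below 0.05, and the 5 genes most like *Socs3* and *Stat3*. Some genes that met this rule are not reported here. Cytokines with few reads, *Spred2* and *Mcl1* were named after their values were seen. Intervals of reads cover counting error only, and at these totals it was largest for *Socs3* among the members.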

Additional observations from a re-analysis of the deposited data

Results flagged for a closer look

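In 42 sets of 7 mice (10 members, 9 marker sums, the total count and the number of genes detected, in each group), the gap of the highest or lowest mouse to its neighbour, divided by the range of the group, passed Dixon's 95% critical value in 4. Chance alone gives about 1 in 20 in independent sets of normally distributed values. These sets share mice and the levels were not log-transformed, so that rate is only a rough guide here. *Socs3* in the vehicle group had a gap ratio of 0.622, since G13 was at 11.5 CPM and the next mouse at 5.32 CPM. *Cebpd* in the vehicle group had a gap ratio of 0.839, with G4 at 10.3 CPM and the next mouse at 4.64 CPM. In the indole group, G8 was far above the others in the summed macrophage markers (548.2 CPM, gap ratio 0.75) and in the summed T and NK cell markers (9.69 CPM, gap ratio 0.834). G8 also had the lowest *Il6ra* of all mice and the highest *Cebpd* of the indole group.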

How the results depend on the processing

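The number of chain genes at an unadjusted *p* below 0.05 was 3. It was 2 (*Socs3* and *Stat3*) with DESeq2, limma voom, RLE scaling or a fit that is not robust. With 1 surrogate variable it was 1, and it was 1 to 3 when each mouse was left out. It was 1 (*Il6ra*) without G11 and G13, and 0 without G8, G11 and G13. These joint exclusions were chosen after seeing the data. G11 and G13 are the highest vehicle-treated mice for *Stat3* and *Socs3*, and G8 is the indole-treated mouse with the lowest *Il6ra*. Leaving them out makes those differences smaller by construction. No chain gene had an adjusted *p* below 0.05 in any alternative run. Over all genes the unadjusted count was 482, and it was 1336 without a filter on low counts and 386 to 627 when each mouse was left out, while 1 gene passed after adjustment with DESeq2 on the genes of the main filter. The sign of *Il6st* turned to 0.00956 (log2) with 1 surrogate variable, 0.0175 without G13 (−0.0496 to 0.0175 over single mice), 0.0152 without G11 and G13 and 0.0181 without G8, G11 and G13, and its difference in mean log2 CPM to 0.0183 without G13 (−0.0507 to 0.0183). *Cebpb* turned to 0.0455 without G4 and 0.00887 without G14 (−0.139 to 0.0455), and its difference in mean log2 CPM to 0.0338 and 0.0191 (−0.126 to 0.0338). The number of correlated pairs of members was 1, and it was 0 with RLE scaling and 0 to 2 when each mouse was left out. The correlation of *Il6ra* with *Stat3* turned to −0.054 without G5 and −0.234 without G12 (−0.234 to 0.282), and that with *Socs3* to −0.05 without G9 (−0.05 to 0.395). The causes were not tested. No paired analysis was possible because each mouse has its own number and the groups share none. Of the members, *Socs3* and *Cebpd* had the lowest counts in any mouse (14 and 48 reads). Their counting error, at most 26.7% and 14.4% of the level, was below the spread between mice. That spread was 70.0% (vehicle) and 51.8% (indole) for *Socs3*, and 49.2% and 33.0% for *Cebpd*.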
